A study of Rattus norvegicus with 65 samples.

Results

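The RNA exosome was covered by 10 of the 14554 genes counted in primary rat cardiomyocytes. They encode the cap subunits Exosc1, Exosc2 and Exosc3, the ring subunits Exosc4, Exosc5, Exosc7, Exosc8 and Exosc9, and the ribonuclease subunits Exosc10 and Dis3. The genes were chosen by name and not by a measured value, though with earlier results of these data known. All 10 had a row in the count table, and the lowest count of any of them in any library was 52. Exosc6, the sixth ring subunit, also had a row but is outside the chosen set, so its values are given apart and enter no count of members.

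The exosome trims and degrades RNA from its 3′ end in the nucleus and the cytoplasm. In animals the ring forms a channel that has itself lost catalytic activity, the cap binds RNA at the entry of the channel, and the associated ribonucleases Dis3 and Exosc10 cut the RNA. Exosc10 is enriched in the nucleolus, where it takes part in the maturation of ribosomal RNA, and the loss of its yeast counterpart makes cells sensitive to 5-fluorouracil (5FU), an antimetabolite whose nucleotides are built into RNA.

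Transcripts were measured by polyA RNA sequencing in 65 cultures of serum-starved neonatal rat cardiomyocytes. The drugs were 10 mM 5FU, 2.5 mM acetaminophen (Ace) and 1.25 µM doxorubicin (Dox), a DNA intercalator and topoisomerase II poison, each given for 6 or 24 h. The 5FU wells and their control, DMSO1, held 1% DMSO, and the Ace and Dox wells and their control, DMSO2, held 0.25% DMSO. At 6 h there were 6 libraries each of 5FU, Ace and DMSO1 and 7 each of Dox and DMSO2, and at 24 h there were 6 each of 5FU and DMSO1 and 7 each of Ace, Dox and DMSO2. The hearts of several litters were pooled before plating, so the libraries are parallel cultures of a single cell preparation, and p-values measure the spread between those cultures and not between animals.

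Levels are given as CPM, counts relative to the library total after scaling by TMM, and they are compared between groups and not between genes, since no lengths were used. Differences are log2 fold changes with their standard errors (SE), and FDR is the Benjamini-Hochberg adjusted p-value of edgeR's quasi-likelihood test over the 14554 genes. A gene was called at an FDR below 0.01. Library totals ran from 14332827 to 25738297 counts, the highest being Dox 24 h library 7, which also had the lowest Exosc10 level of any library; libraries are numbered only as names. The 6 cardiomyocyte markers summed to between 24953 and 36194 CPM in the DMSO libraries, and the 6 fibroblast markers to between 4838 and 14386 CPM, so the control cultures carried transcripts of both cell types. In the annotation, Exosc4, Exosc5, Exosc7 and Exosc8 overlap Oplah, Bckdha, Zdhhc3 and Supt20h, and Dis3 overlaps Bora and Pibf1, all of which have rows of their own, and how overlapping reads were divided was not tested. In such bulk samples, fewer cells of a type and less RNA per cell cannot be told apart.

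Across the 10 groups, the members fell into genes with wide and with narrow ranges. Exosc5 spanned the widest range, with group means from 4.31 to 22.8 CPM, a ratio of 5.30 between the highest and the lowest. Exosc7 followed with a ratio of 4.84. Exosc4 varied least, from 34.5 to 49.6 CPM, a ratio of 1.44, and Exosc8 had a ratio of 1.66. The remaining members lay between 1.95 for Exosc9 and 2.78 for Exosc2 and Exosc3. The lowest group was Dox 24 h for 6 members (Exosc2, Exosc5, Exosc7, Exosc8, Exosc9 and Exosc10), whereas Dox 24 h was the highest group for Dis3.

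The spread within a group was small beside these ranges. The coefficient of variation between libraries of a group had a median over groups of 4.39% for Exosc10 and 10.995% for Exosc5, the lowest and the highest among the members. When the groups were put in order of their mean, most neighbours still had overlapping libraries. For Exosc4 and Exosc8 all 9 neighbouring pairs overlapped. Exosc5, Exosc7 and Exosc9 each had 1 step without overlap, the one that set Dox 24 h below every other group. Exosc10 had 2 such steps, one between Ace 6 h and DMSO2 24 h and one between Dox 6 h and Dox 24 h.

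**Figure D1:**
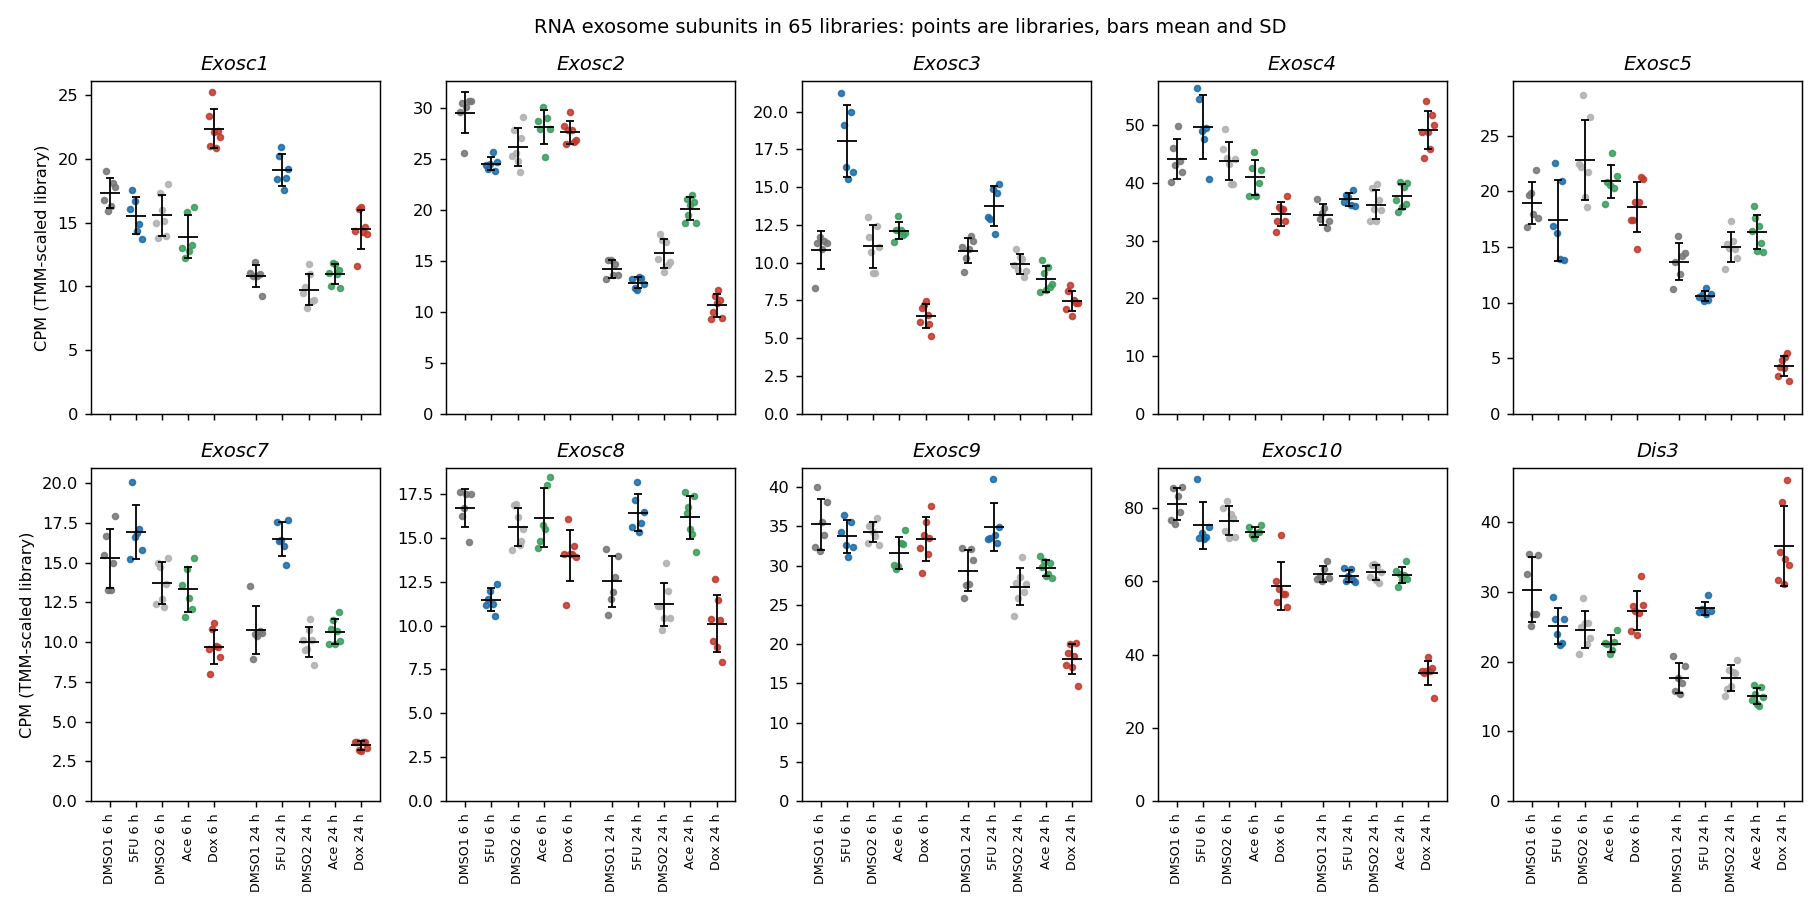
CPM of each RNA exosome subunit (vertical axis, from 0 and with its own scale in each panel) in every library, by group (horizontal axis); points are libraries and bars the mean and SD of the 6 or 7 libraries. Exosc5 and Exosc7 are lowest in Dox 24 h, at means of 4.31 and 3.50 CPM, while Dis3 is highest there, at 36.6 CPM.

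Time in culture without drug was the first comparison, because the drugs acted on a background that itself moved. Of the 10 subunits, 9 were lower at 24 h than at 6 h in DMSO1, against 27.9% of all genes called lower. The same 9 members were lower in DMSO2, where 25.5% of all genes were. The median change of the 10 members was -0.44 in DMSO1 and -0.46 in DMSO2, against 0.00 and 0.02 over all genes.

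Markers of other cell types moved over the same hours. Of all 14554 genes, 3771 were called higher in DMSO1 and 3935 in DMSO2. From 6 h to 24 h in DMSO1, all 6 fibroblast markers were higher (median 0.69), as were 5 of 6 macrophage markers (0.71). Of 5 endothelial markers 4 were higher and 1 lower (0.65), and 3 of 4 smooth muscle markers were lower (-1.84). Of the 6 cardiomyocyte markers, 2 were higher and 1 lower (-0.01). In DMSO2, 4 fibroblast (median 0.35), 5 macrophage (0.81) and 2 cardiomyocyte markers (0.12) were higher. Endothelial markers there were higher in 3 and lower in 1 (0.38), and smooth muscle markers higher in 1 and lower in 2 (-0.68). Summed fibroblast markers went from 4838 to 8707 CPM at 6 h to 7215 to 14386 CPM at 24 h in DMSO1, and from 7087 to 11302 CPM to 10133 to 13412 CPM in DMSO2. Their part in the fall of the subunits was not tested.

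Exosc2, a cap subunit with RNA-binding domains, moved most in both controls. Its lowest, median and highest libraries were 25.6, 30.3 and 30.7 CPM in DMSO1 at 6 h, and 13.2, 14.2 and 15.1 CPM at 24 h. The 2 time points did not overlap, and the change was -1.05 (SE 0.058, FDR 2.4e-24). Its change in DMSO2 was -0.73 (SE 0.053, FDR 8.4e-19). Dis3 fell by 0.78 (FDR 1.2e-11) in DMSO1 and by 0.48 (FDR 1e-06) in DMSO2, and Exosc1 fell by 0.68 in both. The smallest called decreases were those of Exosc9 in DMSO1 (-0.27, FDR 0.00027) and Exosc4 in DMSO2 (-0.27, FDR 1.7e-05).

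Exosc3, the third cap subunit, was the exception. Its change was 0.00 (SE 0.086, FDR 0.97) in DMSO1 and -0.16 (SE 0.080, FDR 0.074) in DMSO2. The solvent controls differed little from each other in these genes at 24 h and somewhat more at 6 h. At 24 h no member was called between DMSO1 and DMSO2, where 0.433% of all genes were called by edgeR; before adjustment Exosc2 alone passed 0.05, with a change of -0.15, and DESeq2 called no member either. At 6 h, where 16.5% of all genes were called, Dis3 alone was, at 0.30 higher in DMSO1 (FDR 0.0041), and that call was lost when libraries were scaled by their size alone (FDR 0.037), when only the compared groups were fitted (FDR 0.030) and without any one of DMSO1 libraries 1, 2 and 6 or DMSO2 libraries 1 and 5 (FDR 0.011 to 0.024). Exosc2 there was at 0.17 (FDR 0.011), and without DMSO1 library 3 it was called at 0.21 (FDR 0.0016). It was also called by DESeq2's Wald test (FDR 0.0081) and without DMSO2 library 2 (FDR 0.0083) or 7 (FDR 0.0043). Exosc5 was at -0.27 (FDR 0.036), and it was called with library-size scaling (-0.35, FDR 0.0075).

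**Figure D2:**
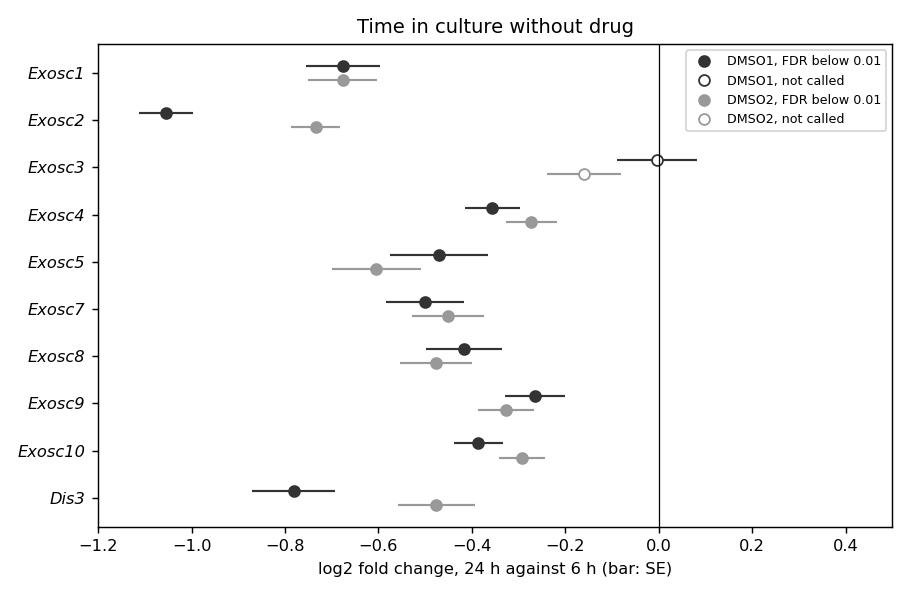
Log2 fold change of each subunit from 6 h to 24 h in the DMSO1 and DMSO2 controls (horizontal axis; bars are SE), with filled points for FDR below 0.01. Exosc2 lies furthest below 0, at -1.05 and -0.73, and Exosc3 is the member with open points in both controls.

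The effect of 5FU was read against DMSO1. After 6 h the members split, with 1 higher and 3 lower, against 23.4% and 24.5% of all genes called in each direction, and the median change of the 10 was -0.12. The libraries of 5FU and DMSO1 did not overlap for 1 member above its controls and 1 below, against 13.8% and 14.4% of all genes. After 24 h the picture was different, with 6 higher and 1 lower, against 28% and 27.8% of all genes, and a median of 0.30 against -0.01 over all genes. The 6 that rose at 24 h were also the 6 whose 5FU libraries all lay above the controls, against 22.3% of all genes above and 20.6% below. The member that rose at both times was Exosc3.

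Among the cap subunits, Exosc3 stood at 8.32, 11.3 and 11.7 CPM (lowest, median, highest library) in DMSO1 at 6 h and at 15.5, 17.7 and 21.2 CPM in 5FU. All 5FU libraries lay above all controls, and the change was 0.73 (SE 0.083, FDR 2.1e-11). At 24 h its controls were at 9.38, 10.97 and 11.8 CPM and its 5FU libraries at 11.9, 13.8 and 15.2 CPM. The groups again did not overlap, with a smaller change of 0.35 (SE 0.085, FDR 0.00029).

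Exosc1, another cap subunit, behaved in the opposite order. At 6 h it was at 15.9, 17.2 and 19.02 CPM in DMSO1 and at 13.7, 15.5 and 17.6 CPM in 5FU, groups that overlapped and did not differ by the test (-0.16, SE 0.076, FDR 0.074). By 24 h the controls had gone to 9.27, 10.9 and 11.9 CPM whereas the 5FU libraries stood at 17.6, 18.8 and 20.9 CPM. Every 5FU library was then above every control, and the change of 0.82 (SE 0.079, FDR 4.2e-14) was the largest of the 10. Exosc2 was lower at 6 h (-0.27, SE 0.056, FDR 3.7e-05) and was not called at 24 h (-0.15, SE 0.060, FDR 0.031).

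The ring subunit Exosc8 turned from lower to higher. At 6 h its libraries were at 14.8, 17.1 and 17.6 CPM in DMSO1 and at 10.5, 11.4 and 12.4 CPM in 5FU, with no overlap and a change of -0.54 (SE 0.082, FDR 5.9e-08). At 24 h they were at 10.6, 12.4 and 14.3 CPM in DMSO1 and at 15.3, 16.2 and 18.2 CPM in 5FU. The groups were apart again but with 5FU on top, at 0.39 (SE 0.082, FDR 3.2e-05).

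Exosc7, which sits in the ring, was not called at 6 h (0.15, FDR 0.10) and rose at 24 h, from 8.91, 10.5 and 13.6 CPM in DMSO1 to 14.8, 16.4 and 17.7 CPM in 5FU. The groups did not overlap, and the change was 0.61 (SE 0.083, FDR 2.7e-09). Exosc9 rose less, by 0.25 (SE 0.064, FDR 0.00052). Exosc5 was the 1 member that was lower at 24 h (-0.37, SE 0.11, FDR 0.0025). Its libraries overlapped by a small margin, 11.2 to 15.995 CPM in DMSO1 and 10.1 to 11.3 CPM in 5FU, and without DMSO1 24 h library 3 the call was lost (-0.32, FDR 0.013). Exosc4 was not called at either time (0.17 with FDR 0.011, and 0.11 with FDR 0.11), but at 6 h it was called with DESeq2's size factors (FDR 0.0069) and without 5FU library 6 (FDR 0.00080) or DMSO1 library 4 (FDR 0.0027).

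The ribonuclease subunits parted at 24 h. Dis3 had 15.3, 17.3 and 20.8 CPM in DMSO1 and 26.8, 27.4 and 29.6 CPM in 5FU, so that the lowest 5FU library was above the highest control (0.65, SE 0.089, FDR 4e-09). Exosc10 had 59.97, 61.1 and 65.6 CPM in DMSO1 and 59.9, 60.8 and 63.6 CPM in 5FU, and the ranges coincided (-0.01, SE 0.053, FDR 0.85). At 6 h Dis3 was lower with 5FU (-0.27, SE 0.086, FDR 0.0052). That call was lost when only the compared groups were fitted (FDR 0.027) and without any one of 5FU libraries 3, 4 and 5 or DMSO1 libraries 1, 2 and 6 (FDR 0.012 to 0.024), and the libraries overlapped, from 25.1 to 35.5 CPM in DMSO1 and from 22.4 to 29.3 CPM in 5FU. Exosc10 was not called at 6 h (-0.11, SE 0.052, FDR 0.073), but it was without 5FU library 1 (-0.16, FDR 0.0069).

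Whether these effects changed between the times was tested as an interaction. The 5FU effect differed between 24 h and 6 h for 6 of the members, where 39.5% of all genes were called in either direction. It was more positive at 24 h for Exosc1 by 0.98 (SE 0.11, FDR 3.8e-11), Exosc8 by 0.94 (SE 0.12, FDR 7.2e-10), Dis3 by 0.92 (SE 0.12, FDR 6.5e-09), Exosc7 by 0.46 (FDR 0.00065) and Exosc9 by 0.32 (FDR 0.0026). For Exosc3 it was less positive (-0.39, FDR 0.0054), a call lost with library-size scaling (FDR 0.027), with only the compared groups in the fit (FDR 0.014) and without any one of 5FU 6 h libraries 1 and 5, 5FU 24 h libraries 2 and 4, DMSO1 6 h library 1 or DMSO1 24 h libraries 5 and 6 (FDR 0.012 to 0.017). The Exosc9 call rested on 5FU 24 h library 3, without which its FDR was 0.013, as it was with only the compared groups in the fit. Set beside the controls, whose levels of 9 members were lower at 24 h, the 5FU libraries of Exosc1, Exosc7, Exosc8, Exosc9 and Dis3 were near or above their 6 h level: Exosc8 had a mean of 11.5 ± 0.66 CPM (SD, n = 6) at 6 h and 16.4 ± 1.07 CPM (SD, n = 6) at 24 h.

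**Figure D3:**
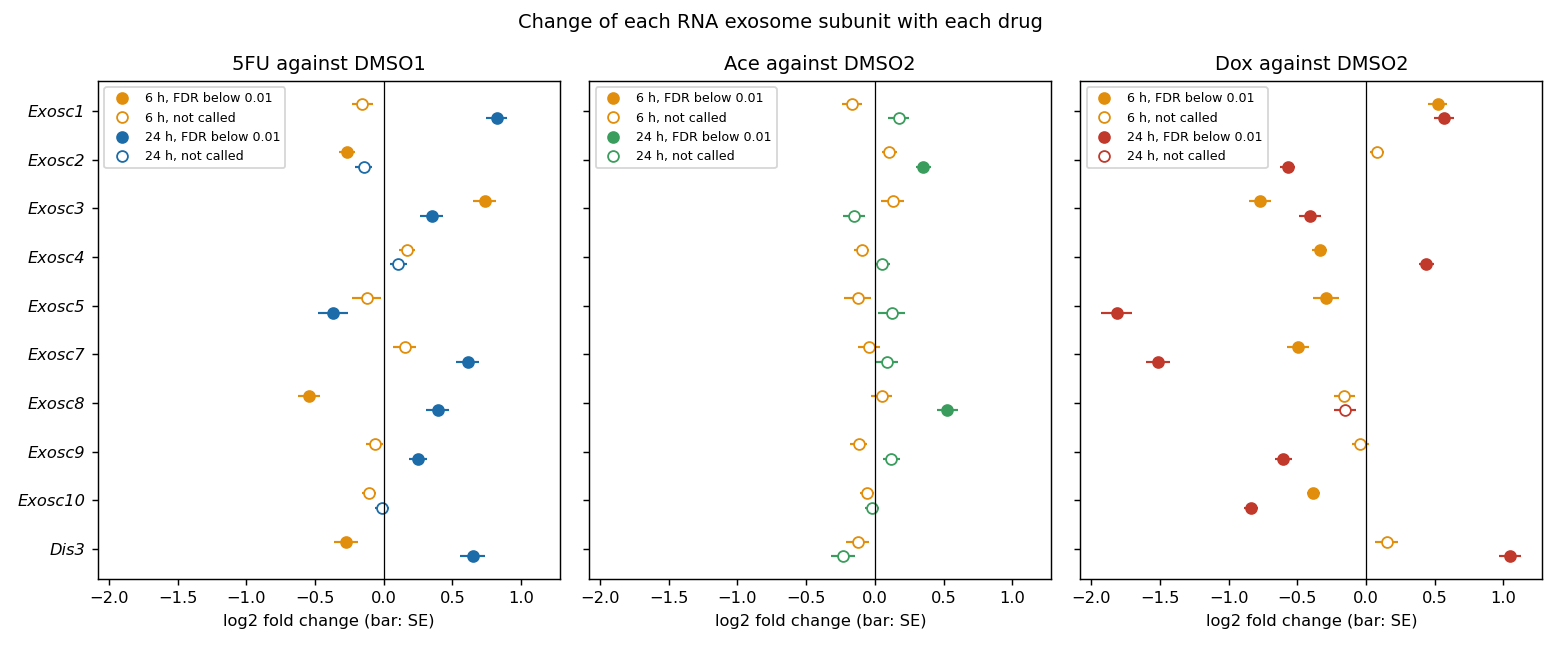
Log2 fold change of each subunit with 5FU (against DMSO1), Ace and Dox (both against DMSO2) at 6 h and 24 h (horizontal axis; bars are SE), with filled points for FDR below 0.01. Dox at 24 h spans the widest range, from -1.81 for Exosc5 to 1.05 for Dis3, and Ace at 6 h has no filled point.

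Ace, an analgesic and antipyretic, was compared with DMSO2 and moved few members. None of the 10 was called at 6 h by edgeR, against 31.7% of all genes. Before adjustment Exosc1 alone passed 0.05, and the changes of the 10 lay between -0.16 and 0.13. DESeq2 called no member there either. At 24 h, 2 members were higher and none lower, where 18.2% and 19.1% of all genes were called in these directions. The same 2 members had libraries clear of their controls, all above them, against 13.2% of all genes above and 13.7% below.

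Both of the genes called with Ace at 24 h were clear of their controls. The ring subunit Exosc8 was at 9.78, 11.1 and 13.5 CPM in DMSO2 and at 14.2, 16.4 and 17.6 CPM in Ace (0.53, SE 0.076, FDR 3e-08). The cap subunit Exosc2 was at 13.96, 15.2 and 17.6 CPM in DMSO2 and at 18.7, 20.5 and 21.4 CPM in Ace (0.35, SE 0.054, FDR 1.2e-07). In neither gene did the groups overlap. Exosc8 was also the 1 member whose Ace effect differed between the times, by 0.48 (SE 0.11, FDR 0.00079), where 11.6% of all genes were called. Dis3 was at -0.23 (SE 0.084, FDR 0.019) and was called only when the fit held just the compared groups (FDR 0.0076) or when DMSO2 24 h library 1 was left out (FDR 0.0088).

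At the concentrations used, the authors reported a significant increase in cell death for Dox alone, at the later time point and in separate plates. Cell viability, read there as reducing potential, was reported significantly lower at 24 h with each drug, and with Ace already at 6 h. The part of cell death in the changes with Dox was not tested. Dox moved the most members, and the shares of all genes called were also larger with Dox than with 5FU or Ace at both times. At 6 h 1 was higher and 5 were lower, against 31.5% and 32.7% of all genes, with a median of -0.23 against 0.00 over all genes. Libraries did not overlap for 1 member above and 3 below the controls at 6 h, against 19.7% and 22.9% of all genes. At 24 h 3 were higher and 6 lower, against 40.4% and 41% of all genes, with a median of -0.49, and libraries did not overlap for 2 above and 6 below, against 33.6% and 34.6% of all genes. Since 81.4% of all genes were called at 24 h, the number of members called is near the background. The number called in either direction at 6 h is near the background as well, given the shares of all genes called there. What sets the members apart from each other is the size and the sign of the changes.

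The ring subunits Exosc5 and Exosc7 had their lowest levels of the series in Dox at 24 h. Exosc5 was at 13.006, 14.95 and 17.3 CPM in DMSO2 at 24 h and at 2.95, 4.19 and 5.51 CPM in Dox. The groups were far apart, with a change of -1.81 (SE 0.11, FDR 1.7e-23). Exosc7 went from 8.55, 10.1 and 11.5 CPM in DMSO2 to 3.13, 3.69 and 3.74 CPM in Dox, a change of -1.52 (SE 0.088, FDR 1.6e-24). Exosc9 fell by 0.60 (SE 0.062, FDR 1.1e-13), to 14.6, 18.5 and 20.1 CPM from 23.6, 27.7 and 31.1 CPM, also without overlap.

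The other ring subunits did otherwise. Exosc4 rose at 24 h, from 33.4, 35.4 and 39.9 CPM in DMSO2 to 44.4, 48.9 and 54.1 CPM in Dox (0.44, SE 0.055, FDR 7.1e-11), with no overlap. It had been lower at 6 h, at 31.5, 35.4 and 37.8 CPM in Dox against 39.7, 44.1 and 49.4 CPM in DMSO2 (-0.34, SE 0.055, FDR 1.9e-07). The sign of its effect therefore turned between the times. Exosc8 was not called at 6 h (-0.16, FDR 0.056) or 24 h (-0.16, FDR 0.062). At 6 h Exosc7 was already lower (-0.50, SE 0.078, FDR 7.8e-08), whereas the call for Exosc5 (-0.29, SE 0.095, FDR 0.0046) was lost with DESeq2's size factors (FDR 0.013), with only the compared groups (FDR 0.014) and without any one of DMSO2 libraries 3 and 7 or Dox libraries 1, 2 and 4 (FDR 0.010 to 0.026).

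In the cap, Exosc1 was higher with Dox at both times. At 6 h it was at 13.8, 15.1 and 18.003 CPM in DMSO2 and at 20.9, 22.1 and 25.3 CPM in Dox, apart from the controls (0.52, SE 0.070, FDR 1.4e-09). At 24 h it was at 8.32, 9.47 and 11.7 CPM in DMSO2 and at 11.6, 14.3 and 16.2 CPM in Dox (0.57, SE 0.074, FDR 2.8e-10), and the lowest Dox library lay just under the highest control. Exosc3 was lower at both times, most at 6 h, where it stood at 5.17, 6.53 and 7.46 CPM in Dox and 9.29, 11.1 and 13.004 CPM in DMSO2 (-0.77, SE 0.083, FDR 1.3e-12). Its change at 24 h was -0.41 (SE 0.082, FDR 9.5e-06). Exosc2 was not called at 6 h (0.08, FDR 0.17) and was lower at 24 h (-0.57, SE 0.056, FDR 2.5e-14).

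The ribonuclease subunits went in opposite directions with Dox. Exosc10 was at 59.5, 62.5 and 64.8 CPM in DMSO2 at 24 h and at 28.2, 35.4 and 39.2 CPM in Dox, without overlap (-0.84, SE 0.050, FDR 7.1e-24). Dis3 was at 15.003, 18.4 and 20.3 CPM in DMSO2 and at 31.2, 34.8 and 46.1 CPM in Dox, again without overlap but higher (1.05, SE 0.082, FDR 1.2e-18). At 6 h Exosc10 was lower (-0.38, SE 0.049, FDR 3.3e-10), with 1 Dox library at 72.5 CPM inside the control range of 71.9 to 81.9 CPM. Dis3 was not called at 6 h (0.15, SE 0.080, FDR 0.089).

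Without Dox 24 h library 7, the 24 h changes with Dox were -0.76 for Exosc10, 1.09 for Dis3, -1.70 for Exosc5, -1.48 for Exosc7 and -0.07 for Exosc8 (FDR 0.38), and the counts of 3 higher and 6 lower stood. The Dox effect differed between the times for 8 of the members, where 64.8% of all genes were called. It was more negative at 24 h for Exosc5 by 1.52 (the interaction being -1.52, SE 0.15, FDR 2.1e-14), Exosc7 (-1.02, FDR 1.3e-11), Exosc2 (-0.65, FDR 2.8e-11), Exosc9 (-0.56, FDR 3.8e-08) and Exosc10 (-0.46, FDR 4.3e-08). It was more positive for Dis3 (0.90, FDR 2.7e-10), Exosc4 (0.78, FDR 8.9e-14) and Exosc3 (0.36, FDR 0.0045), the last of which was lost without DMSO2 6 h library 1 (FDR 0.011) or Dox 6 h library 7 (FDR 0.014). Scaling by library size alone put the median of all genes at 0.27 in this interaction, against 0.07 with TMM, and at -0.15 in Dox at 6 h, against 0.00. Under that scaling the interaction was -0.25 for Exosc10, -0.36 for Exosc9 and 0.57 for Exosc3 (FDR 2.3e-05). Exosc5 with Dox at 6 h was then at -0.45 (FDR 5.9e-05), and Exosc8 and Exosc9 were also called lower with Dox at 6 h.

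The drugs were then compared with each other. At 24 h the effect of 5FU minus that of Dox differed for 9 of the members, against 71.1% of all genes, and at 6 h for 8, against 45.9%. At 24 h the difference was widest for Exosc7, at 2.13 (SE 0.12, FDR 1.6e-24), since it rose with 5FU and fell with Dox. Exosc5 (1.45, SE 0.16), Exosc9 (0.85, SE 0.089), Exosc10 (0.83, SE 0.073), Exosc3 (0.76, SE 0.12), Exosc8 (0.55, SE 0.11) and Exosc2 (0.42, SE 0.083) were also higher on this measure. Dis3 (-0.40, SE 0.12, FDR 0.0022) and Exosc4 (-0.33, SE 0.081, FDR 0.00021) were lower, so the rise of Dis3 was larger with Dox than with 5FU. Exosc1 rose with both and did not pass the test of the difference (0.25, SE 0.11, FDR 0.030).

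At 6 h the widest difference between 5FU and Dox was that of Exosc3, at 1.51 (SE 0.12, FDR 1.7e-17). Compared with Ace, 5FU differed for 4 members at 6 h and 6 at 24 h, against 30.9% and 37.3% of all genes. The largest of these was Dis3 at 24 h (0.88, SE 0.12, FDR 1.8e-08). Dox and Ace, which shared DMSO2 and were compared directly, differed for 6 members at 6 h and for 10 at 24 h, against 62.1% and 80.6% of all genes. The effects of Ace and Dox share control libraries, and those of 5FU do not share any with them.

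Exosc6, outside the chosen set, was higher with 5FU at both times. Its libraries were at 13.1, 14.3 and 15.1 CPM in DMSO1 and at 21.3, 24.0 and 28.5 CPM in 5FU at 6 h, a change of 0.80 (SE 0.086, FDR 3.6e-12). At 24 h the change was 0.52 (SE 0.090, FDR 8.5e-07). With Dox it was -0.24 (FDR 0.0072) at 6 h, a call lost with DESeq2's size factors (FDR 0.021) and its Wald test (FDR 0.019), with only the compared groups (FDR 0.014) and without any one of DMSO2 libraries 1, 2, 3 and 7 or Dox libraries 1, 2, 4, 5, 6 and 7 (FDR 0.010 to 0.026). With library-size scaling that value was -0.40 (FDR 3.8e-05). At 24 h Exosc6 was at 0.21 with Dox (FDR 0.024), and it was called with DESeq2's size factors (0.25, FDR 0.0072), the Wald test (FDR 0.0070), library-size scaling (FDR 0.0069) and without Dox library 2 (FDR 0.0039), 5 (FDR 0.0071) or 7 (FDR 0.0069).

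The ratio of Exosc10 to Dis3 within a library does not depend on how libraries are scaled, so it was used to compare the ribonuclease subunits. The controls had mean log2 ratios of 1.43 ± 0.18 (SD, n = 6) in DMSO1 and 1.64 ± 0.16 (SD, n = 7) in DMSO2 at 6 h. At 24 h they were 1.82 ± 0.20 (SD, n = 6) and 1.83 ± 0.15 (SD, n = 7). Counts of Exosc10 were thus between 2.36 and 4.13 times those of Dis3 in the control libraries.

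With Dox at 24 h the log2 ratio was -0.06 ± 0.25 (SD, n = 7), and the libraries had between 0.787 and 1.26 counts of Exosc10 for each of Dis3. The difference from DMSO2 was -1.88, larger than the spread, with every Dox library below every control (two-sided exact permutation test, p = 0.00058, the smallest that 7 against 7 allows, and 0.0035 adjusted over the 6 drug comparisons). Exosc10 already lay below and Dis3 above every control in these libraries. The ratio therefore had to separate, and this p-value adds no independent support. With 5FU at 24 h the log2 ratio was 1.15 ± 0.079 (SD, n = 6), a difference of -0.67, also without overlap (exact p = 0.0022, the smallest that 6 against 6 allows, adjusted 0.0058). Dis3 already lay above every control in these libraries, while the ranges of Exosc10 coincided. The ratio had to separate here too, and this p-value likewise adds no independent support. Dox at 6 h was lower by 0.54 (the difference being -0.54, exact p = 0.0029, adjusted 0.0058), with overlapping libraries.

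Ace at 24 h went the other way, at 2.03 ± 0.12 (SD, n = 7) and a difference of 0.21 (exact permutation p = 0.016, adjusted 0.024). Neither 5FU at 6 h (0.16, exact p = 0.10, adjusted 0.12) nor Ace at 6 h (0.063, exact p = 0.38, adjusted 0.38) passed the test. Without Dox 24 h library 7 the difference at 24 h was -1.85.

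**Figure D4:**
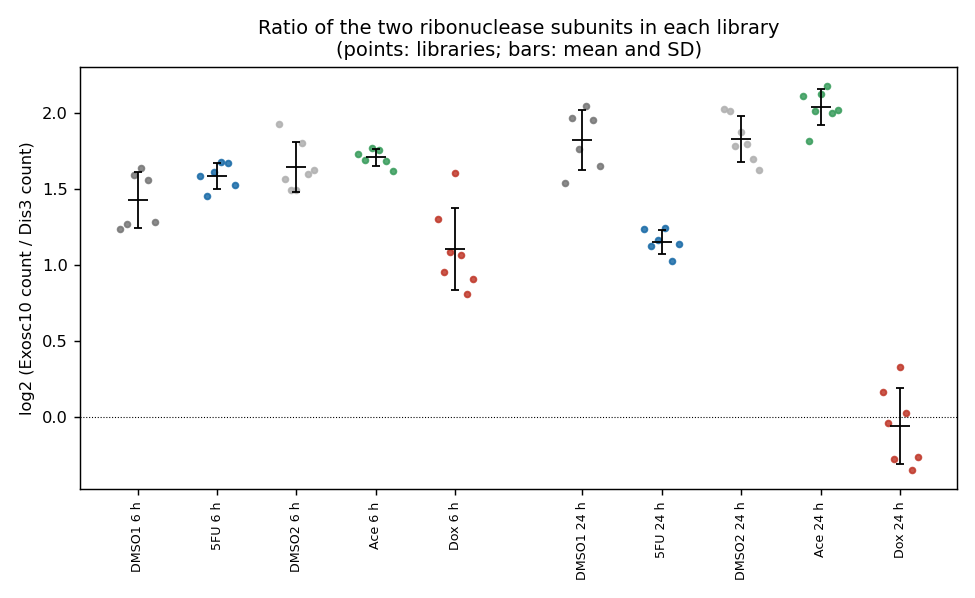
Log2 of the Exosc10 count over the Dis3 count (vertical axis) in each library, by group (horizontal axis); points are libraries, bars the mean and SD, and the dotted line marks equal counts. Dox 24 h libraries lie around the line, from -0.35 to 0.33, and 5FU 24 h libraries from 1.02 to 1.24, both below their controls.

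How alike the members were across the groups is given as a description over the 10 group means, which share libraries and drug effects within a gene. Exosc9, Exosc10 and Exosc7 followed the mean of the other members most closely, with Pearson r of 0.90, 0.88 and 0.83. Exosc2 (0.74), Exosc5 (0.71) and Exosc8 (0.61) came next, and Exosc3 (0.43) and Exosc1 (0.34) were further off. Exosc4 (0.02) and Dis3 (-0.11) did not follow it. The closest pair was Exosc7 and Exosc9 (r = 0.95) and the most opposed Exosc5 and Dis3 (r = -0.43).

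The mean profile of the 10 members, as centred log2 CPM, was highest in DMSO1 at 6 h (0.29) and lowest in Dox at 24 h (-0.57), with 5FU at 24 h (0.08) above all other 24 h groups. Among the 10498 named genes that averaged 100 counts or more, the genes most like this profile over the 10 group means were Psmd12 (r = 0.99), Pop1 (r = 0.98), Fastkd2 (r = 0.98), Psmd5 (r = 0.98) and Twf2 (r = 0.97). Psmd12 is a regulatory subunit of the proteasome and Pop1 a subunit of the RNA-processing enzymes RNase P and RNase MRP. Among the genes most opposed to it were Irx5 (r = -0.98), Ache (r = -0.98), Kifc2 (r = -0.98) and Usp3 (r = -0.98).

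Of the 10 members, 9 had a promoter in RefSeq's table for the rat assembly GRCr8, spanning 250 bases before to 50 after the annotated start, and Exosc4 had none. The stretches of Exosc2, Exosc9 and Exosc10 are shown because these 3 genes followed the mean profile, were all lower with Dox at 24 h, and had a window partly free of any annotated gene. Each lies on the + strand and is written 5′ to 3′ in the sense of the gene, up to the base before the annotated span: Exosc2 at chr3:35360416-35360651, Exosc9 at chr2:121343953-121344153 and Exosc10 at chr5:164278190-164278413. Capitals mark matches, on either strand, to the letters GGGCGG (Sp1) or CCAAT (NF-Y).
Exosc2: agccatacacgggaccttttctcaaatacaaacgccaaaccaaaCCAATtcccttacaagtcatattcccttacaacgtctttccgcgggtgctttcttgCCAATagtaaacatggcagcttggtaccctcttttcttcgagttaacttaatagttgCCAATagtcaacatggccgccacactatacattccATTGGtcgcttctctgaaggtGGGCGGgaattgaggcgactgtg
Exosc9: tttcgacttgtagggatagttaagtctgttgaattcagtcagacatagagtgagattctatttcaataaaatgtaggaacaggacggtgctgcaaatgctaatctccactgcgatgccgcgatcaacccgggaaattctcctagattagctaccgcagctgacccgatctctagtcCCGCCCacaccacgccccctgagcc
Exosc10: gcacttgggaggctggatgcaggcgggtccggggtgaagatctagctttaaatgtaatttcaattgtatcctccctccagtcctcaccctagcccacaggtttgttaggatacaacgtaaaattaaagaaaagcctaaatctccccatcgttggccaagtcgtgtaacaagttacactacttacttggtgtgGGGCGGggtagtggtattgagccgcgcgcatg

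All 3 stretches hold GGGCGG or its reverse complement CCGCCC, and Exosc2 alone of them holds CCAAT, on both strands. Over the whole 300-base windows, GGGCGG was found in 5 of the 9 members (Exosc2, Exosc7, Exosc9, Exosc10 and Dis3) and in 33.1% of all 33469 promoters, and CCAAT in 4 members and 37.5%. The ETS letters CCGGAA were in Exosc3, Exosc10 and Dis3 (14.95% of all), and the YY1 letters AAGATGG in Exosc2 and Exosc3 (7.01%). Single members held the NRF1 letters GCATGCG (Exosc10, 3.33%), the E-box CACGTG (Exosc5, 6.42%) and the CRE letters TGACGTC (Exosc9, 3.22%). None held TATAAA, found in 14.2% of all promoters. Both Dis3, which rose with Dox, and Exosc10, which fell, hold GGGCGG and CCGGAA. The windows of Exosc1, Exosc3, Exosc7, Exosc8 and Dis3 also overlap a neighbouring annotated gene.

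The exosome works with cofactors that bring RNA to it, and these were counted for comparison. The 12 nuclear cofactors include the helicase Mtrex, the Exosc10 partners C1d and Mphosph6, and Rbm7 and Zcchc8 of the NEXT complex. With 5FU at 24 h, 6 of the 12 were higher and 3 lower, against 28% and 27.8% of all genes, with a median of 0.22. Mphosph6 rose most (0.95, SE 0.083, FDR 1.5e-15), followed by C1d (0.47, SE 0.073, FDR 6.7e-08), while Exosc10 itself did not pass the test. With 5FU at 6 h, 5 nuclear cofactors were higher and 4 lower, against 23.4% and 24.5% of all genes, with the largest change that of Zfc3h1, the zinc finger partner of Mtrex in the PAXT connection, at -1.68 (SE 0.098, FDR 1.3e-22). Mphosph6 was at 0.68 (FDR 8e-11) and Mtrex at -0.37 (FDR 5.1e-09). With Ace 4 were higher and 2 lower at 6 h, against 16.5% and 15.2% of all genes, and 0 higher and 1 lower at 24 h, against 18.2% and 19.1%.

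With Dox at 24 h, 5 nuclear cofactors were higher and 5 lower, against 40.4% and 41% of all genes, with a median of -0.04. Mtrex, which unwinds RNA for the nuclear exosome, rose by 1.10 (SE 0.047, FDR 4.7e-31), a change in the direction of Dis3. C1d (-0.36, SE 0.070, FDR 3.5e-06) and Mphosph6 (-0.37, SE 0.081, FDR 4e-05) were lower, in the direction of Exosc10. Nop53, a nucleolar adaptor of Mtrex, was at -1.08 (SE 0.049, FDR 7.7e-30). At 6 h 4 were higher and 5 lower, against 31.5% and 32.7% of all genes. The widest changes there were those of Zcchc8 (-1.14, FDR 5.1e-25) and the polyA polymerase Tent4a (0.65, FDR 2.5e-16), with Mtrex at 0.50 (FDR 1.1e-14) and Rbm7 at -0.58 (FDR 6.6e-14).

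The shares of all genes called are the same for the lists that follow. The 6 cytoplasmic genes were the Ski complex members Skic2, Skic3 and Skic8, the adaptor Hbs1l, and the nucleases Dis3l and Dis3l2, of which Dis3l2 acts without the exosome. With 5FU at 24 h, 3 were higher and 1 lower (median 0.31), Skic2 rising by 0.52 (SE 0.048, FDR 1.6e-14) and Skic3 falling (-0.41, SE 0.072, FDR 1.1e-06). With Dox at 24 h, 1 was higher and 5 lower (median -0.34). Dis3l2 had the largest change of the nuclear and cytoplasmic genes listed, -1.88 (SE 0.062, FDR 1.9e-37). Dis3l was at -0.59 (SE 0.055, FDR 3.1e-15), and both were opposite in sign to Dis3. These 2 genes are nucleases and not cofactors that bring RNA to the exosome. At 6 h the counts were 2 higher and 1 lower with 5FU, 1 and 1 with Ace, and 1 and 1 with Dox; at 24 h with Ace they were 1 and 1.

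Other RNA decay genes were called in both directions. Of 10 genes of decapping and 5′ to 3′ decay, 4 were higher and 1 lower with 5FU at 24 h (median 0.16) and 4 higher and 4 lower with Dox at 24 h (median -0.05), where the decapping helper Ddx6 was at -0.93 (SE 0.046, FDR 5.1e-28) the exonuclease Xrn1 at -0.87 (SE 0.059, FDR 3.3e-21), Patl1 at -0.96 (SE 0.054, FDR 2.6e-25) and the decapping protein Dcp1b at 1.17 (SE 0.098, FDR 2.7e-17). Of 13 genes of deadenylation, which shorten the polyA tail, 6 were higher and 2 lower with 5FU at 24 h (median 0.13) and 5 higher and 4 lower with Dox (median -0.02). Beside these, the medians of the 10 exosome subunits were 0.30 and -0.49. The difference between the lists was not tested.

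**Figure D5:**
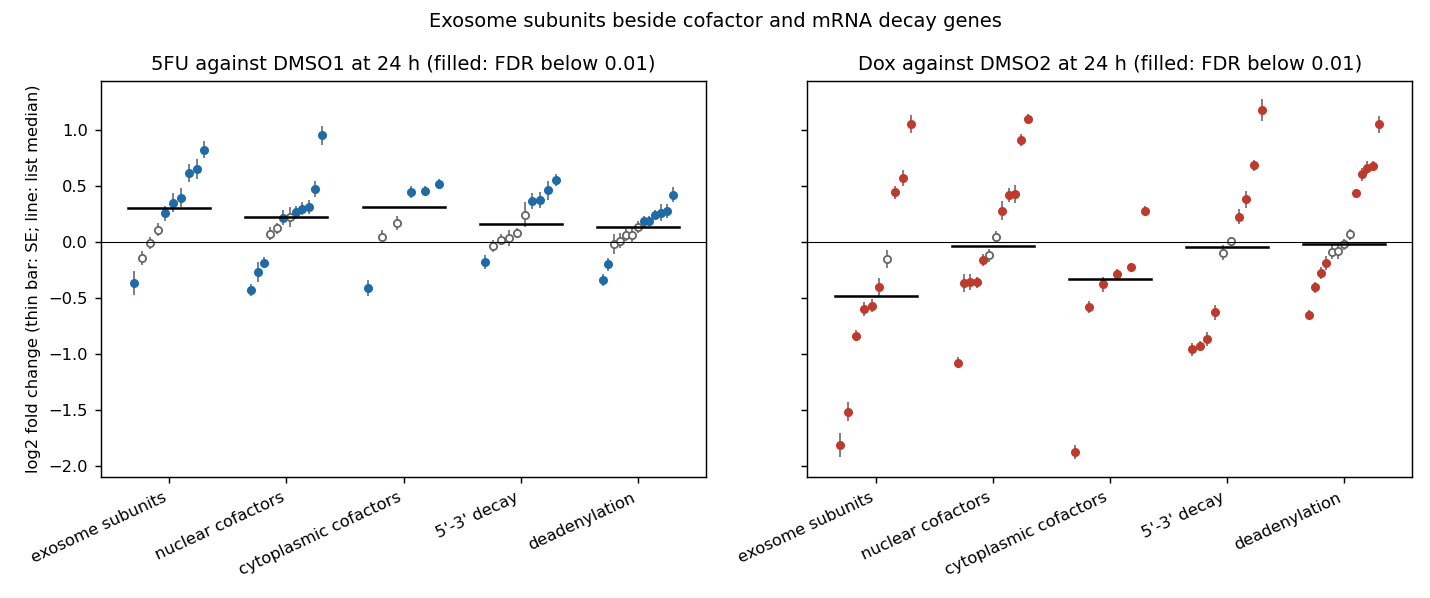
Log2 fold change of each gene in 5 lists (exosome subunits, nuclear and cytoplasmic cofactors, 5′ to 3′ decay, deadenylation) with 5FU against DMSO1 and Dox against DMSO2 at 24 h (vertical axis; thin bars are SE, filled points FDR below 0.01, horizontal lines list medians). The median of the exosome subunits is 0.30 with 5FU and -0.49 with Dox, and genes lie on both sides of 0 in every list.

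Markers of the cell types moved with the drugs too. With Dox at 24 h, all 6 cardiomyocyte markers were lower (median -2.98) and summed to between 8128 and 9794 CPM, against 27493 to 36194 CPM in DMSO2. All 6 fibroblast markers (median -2.30), all 5 endothelial markers (median -2.62) and all 6 macrophage markers (median -1.44) were lower as well, and 3 of 4 smooth muscle markers were higher (median 2.22). The endothelial marker Cldn5 had no count in 5 of the 7 Dox 24 h libraries and the macrophage marker Cd163 none in 3.

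Summed fibroblast markers ran from 1427 to 3072 CPM in Dox at 24 h and from 10133 to 13412 CPM in DMSO2, endothelial markers from 15.2 to 35.3 CPM and 190.9 to 248.7 CPM, macrophage markers from 18.8 to 29.8 CPM and 46.2 to 60.98 CPM, and smooth muscle markers from 306.8 to 1579 CPM and 432.9 to 607 CPM. With 5FU at 24 h, 4 cardiomyocyte markers were lower and 1 higher, and summed to between 17817 and 20360 CPM against 24953 to 30707 CPM in DMSO1. All 6 fibroblast markers were lower with 5FU and with Ace at 24 h, with medians of -1.38 and -1.26. At 6 h the fibroblast markers were lower in 1 of 6 with 5FU, 4 of 6 with Ace and 4 of 6 with Dox. Endothelial markers at 6 h were lower in 3 of 5 with 5FU (median -0.46), 4 of 5 with Ace (-0.84) and 5 of 5 with Dox (-1.64). Smooth muscle markers at 6 h were higher in 4 of 4 with Dox (median 1.62), 1 of 4 with 5FU (0.06) and 0 of 4 with Ace (-0.13). Macrophage markers at 6 h were higher in 1 and lower in 2 of 6 with 5FU, lower in 1 with Ace, and higher in 2 and lower in 1 with Dox. Cardiomyocyte markers at 6 h were higher in 1 and lower in 1 of 6 with 5FU, lower in 1 with Ace, and higher in 2 and lower in 3 with Dox. The part of these shifts in the changes of the exosome subunits was not tested.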

How the data were processed

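PolyA RNA was sequenced from 65 cultures of primary neonatal rat cardiomyocytes in 10 groups. The authors made the deposited estimated counts with kallisto 0.46.0 (per the labels) on the Ensembl rat transcriptome, used tximport to sum them to Entrez genes, and filtered out low-count genes; the values are whole numbers and were not normalized. The 14554 rows have 14009 symbols, taken from the RefSeq annotation of GRCr8 and used for names only. Library totals ran from 14332827 to 25738297, and no member had fewer than 52 counts in a library; the standard errors take in both counting error and the spread between cultures. The table's columns name a group and no replicate number. Over 180 pairs of libraries within a group, the lowest chi-square per gene was 2.84, so every library was counted as its own sample.

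Counts were scaled with TMM and fitted with edgeR 4.0.16 (glmQLFit, glmQLFTest) in R 4.3.3, with 1 model for the 10 groups, 19 contrasts and a Benjamini-Hochberg FDR below 0.01 over all genes. A requirement of 10 or more counts in 1 or more libraries removed no gene. The Exosc10 to Dis3 ratio was the log2 of counts plus 0.5, compared with an exact two-sided permutation test over libraries. The edgeR fit was tested on simulated data with known changes. Few genes were changed there, equally up and down, so it does not test the scaling where most genes change, as with Dox at 24 h. Alternatives were DESeq2 1.42.0 size factors and its Wald test, library-size scaling, filterByExpr, the compared groups only, other thresholds, an offset of 5 for the ratio and leaving out each library. The genes named are the members and Exosc6, the genes of the cofactor, decay and cell type marker lists, and the 5 genes most and the 5 least like the mean profile of the members among genes with a mean count of at least 100, of which 1 is not reported here. The members and lists were chosen with earlier results of these data known. Of the listed genes, Pecam1 and Dcp2 had no row in the table.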

Additional observations from a re-analysis of the deposited data

Results flagged for a closer look

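In 7 of the 100 pairs of a member and a group, 1 library stood apart from the rest of its group by Dixon's test, which chance gives in about 1 in 20 groups. In DMSO1 at 6 h, Exosc2 was at 25.6 CPM in library 3, with the next library at 29.6 CPM, and Exosc3 was at 8.32 CPM in library 1, with the next at 10.9 CPM. With 5FU at 24 h, Exosc9 was at 41.1 CPM in library 3 (next 34.96 CPM) and Dis3 at 29.6 CPM in library 5 (next 27.6 CPM). Exosc10 gave the remaining 3, at 87.9 CPM in 5FU 6 h library 1 (next 75.0 CPM), at 72.5 CPM in Dox 6 h library 4 (next 60.1 CPM) and at 28.2 CPM in Dox 24 h library 7 (next 34.8 CPM). No library stood apart in more than 1 member.

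The effect of a drug differed between 24 h and 6 h, by edgeR's test of the interaction, in 15 cases. Of all genes, this test called 39.5% for 5FU, 11.6% for Ace and 64.8% for Dox. For 5FU the 24 h effect minus the 6 h effect was 0.98 for Exosc1, 0.94 for Exosc8, 0.92 for Dis3, 0.46 for Exosc7, 0.32 for Exosc9 and -0.39 for Exosc3. For Ace it was 0.48 for Exosc8. For Dox it was 0.90 for Dis3, 0.78 for Exosc4, 0.36 for Exosc3, -0.46 for Exosc10, -0.56 for Exosc9, -0.65 for Exosc2, -1.02 for Exosc7 and -1.52 for Exosc5. Exosc3, Exosc7, Exosc8, Exosc9 and Dis3 appear under more than 1 drug.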

How the results depend on the processing

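No value called in any setting changed sign. Of 3400 values of single members with a library left out, 3337 kept their side of the threshold, 48 lost a call and 15 gained one. With 5FU at 6 h the number of members higher went from 1 to 2 with DESeq2's size factors, filterByExpr, DESeq2's Wald test and an FDR below 0.1, and the number lower from 3 to 5 with library-size scaling and an FDR below 0.1. At an FDR below 0.1, 2 members were lower with 5FU at 24 h, 1 was lower with Ace at 6 h, 4 were higher and 1 lower with Ace at 24 h, and 2 were higher with Dox at 6 h; 5 were called in the Ace interaction with time and 3 between DMSO1 and DMSO2 at 6 h. Requiring an FDR below 0.01 and a log2 change of at least 0.5 left 1 lower with 5FU at 6 h, 3 higher and 0 lower with 5FU at 24 h, 1 higher with Ace at 24 h, 1 lower with Dox at 6 h, 3 and 0 in the 5FU and Ace interactions with time and 0 between the controls at 6 h. The same rule left 4 and 3 over time in DMSO1 and DMSO2, and at 6 h 4 for 5FU minus Dox, 2 for 5FU minus Ace and 2 for Dox against Ace. With only the compared groups in the fit, 1 member was lower with Ace at 24 h, 2 were called in the Ace interaction and 0 between the controls at 6 h. Library-size scaling gave 4 in the Ace interaction, and the Wald test gave 2 between the controls at 6 h. The cause of these differences was not tested. Shares of all genes under these other settings are not given, so the counts cannot be set against a background.

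Leaving out 1 library gave these ranges. With 5FU the number higher was 1 to 2 at 6 h and 6 to 6 at 24 h, and the number lower 2 to 4 and 0 to 1. With Ace it was 0 to 0 higher and 0 to 0 lower at 6 h, and 2 to 2 and 0 to 1 at 24 h. With Dox it was 1 to 1 and 4 to 5 at 6 h, and 3 to 3 and 6 to 6 at 24 h. The interactions with time gave 5 to 6 for 5FU, 1 to 2 for Ace and 7 to 8 for Dox, the controls 0 to 2 at 6 h and 0 to 0 at 24 h, and time in DMSO1 and DMSO2 9 to 9 each. Between drugs they were 8 to 8 (5FU minus Dox), 3 to 4 (5FU minus Ace) and 5 to 7 (Dox against Ace) at 6 h, and 9 to 9, 5 to 6 and 9 to 10 at 24 h. The Exosc10 to Dis3 difference ran from 0.12 to 0.20 with 5FU at 6 h, -0.72 to -0.62 with 5FU at 24 h, 0.038 to 0.11 with Ace at 6 h, 0.17 to 0.24 with Ace at 24 h, -0.62 to -0.49 with Dox at 6 h and -1.95 to -1.84 with Dox at 24 h. The call of Exosc4 in 5FU minus Ace at 6 h (0.26, FDR 0.0065) was lost with only the compared groups (FDR 0.030) and without 5FU library 1, 2 or 5, Ace library 1, 4 or 5, DMSO1 library 1, 3 or 6 or DMSO2 library 1 or 2 (FDR 0.010 to 0.026), that of Exosc3 in Dox against Ace at 24 h (-0.25, FDR 0.0039) with DESeq2's size factors (FDR 0.018) and without Ace library 2, 3 or 5 or Dox library 4, 6 or 7 (FDR 0.011 to 0.027), and that of Dis3 in Dox against Ace at 6 h (0.27, FDR 0.0034) with library-size scaling (FDR 0.094) and without Ace library 3 (FDR 0.017) or Dox library 6 (FDR 0.016). Exosc5 in 5FU minus Ace at 24 h was lost without Ace library 2 (FDR 0.010) or DMSO1 library 3 (FDR 0.012).

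No paired analysis was possible because the columns of the count table carry no replicate numbers. Library-size scaling moved the share of calls that were higher, over all genes, from 48.9% to 36.8% with 5FU at 6 h, from 49.1% to 33.8% with Dox at 6 h and from 48.8% to 61.4% with Ace at 24 h. The same shares went from 47.9% to 77.1% and from 52.5% to 64.8% in the Ace and Dox interactions, from 59.9% to 29.6% and from 31.7% to 80.7% between the controls at 6 and 24 h, from 51.4% to 40.6% over time in DMSO2 and from 49.4% to 36.7% for Dox against Ace at 6 h. The libraries are parallel cultures of a single preparation, so the spread between preparations is unknown.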
